A study of Homo sapiens with 8 samples.

Results

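The genes of the Wnt pathway were followed in IGR-N91, a human neuroblastoma (NB) cell line with amplified MYCN, grown as aggregates in hanging drops. The set held the protein-coding genes whose symbols name a WNT ligand, a Frizzled receptor (FZD), a secreted Frizzled-related protein (SFRP) or a Dickkopf protein (DKK), with 21 named partners from the secretion of the ligands to the TCF/LEF factors in the nucleus. These rules chose 58 of the 60676 gene identifiers in the count table, and 37 of them passed the filter on low counts, among 16680 genes that did. The study asked what NB cells experience from the secretions of nearby embryonic ganglia.

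Bulk RNA-seq counts of 8 libraries were used, 2 in each of 4 groups. One group of aggregates was kept in control medium, that is, medium in which no tissue had been cultured. The others were exposed to medium conditioned by sympathetic ganglia of E8 chick embryos (E8-cSGcm), by dorsal root ganglia of E8 chick embryos (E8-cDRGcm) or by sympathetic ganglia of E15.5 mouse embryos (E15.5-mSGcm), for 20 h by the protocol and 24 h by the design text. All groups are 1 cell line with no genetic change between them, and nothing in the labels says whether the duplicates came from separate cultures, so the p-values measure the spread between these libraries. Species and embryonic age cannot be told apart between the chick and the mouse media, and ganglion type was varied in chick only.

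Wnt proteins are lipid-modified ligands that PORCN acylates and WLS carries to the cell surface. In the canonical branch they bind a Frizzled receptor with LRP5 or LRP6, which stops the AXIN-containing destruction complex from degrading beta-catenin (CTNNB1), and beta-catenin then acts with TCF/LEF factors on target genes such as AXIN2. Other ligands, WNT5A among them, signal through ROR and RYK receptors without beta-catenin. SFRP proteins bind the ligands, most DKK proteins block LRP5/6, and R-spondins acting on LGR4 and LGR5 keep the ubiquitin ligases ZNRF3 and RNF43 from removing Frizzled. In the embryo Wnt signals induce the neural crest, the source of sympathetic neurons and of NB.

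Total counts ranged from 7930765 to 15060744, and both E15.5-mSGcm libraries were the smallest, with 7930765 and 8937397. Levels are given as CPM (reads of a gene scaled to a common library total, after TMM normalization by edgeR) and for comparisons between genes as CPM per kb of exonic length. A count of 3, taken as the smallest amount a library can show, corresponded to 0.199 to 0.378 CPM, which covers counting error only because the reads carry no molecular identifiers. Pearson's r of log2 CPM across genes, which are not independent of each other, was between 0.989 and 0.993 for the replicate pairs. The cells had reads for 7 noradrenergic markers (PHOX2A, HAND2, GATA3, ISL1, TH, DBH and MYCN), whose summed level was 5.85e+03 to 5.94e+03 CPM in control medium, 4.36e+03 to 4.63e+03 in E8-cSGcm, 3.49e+03 to 3.60e+03 in E8-cDRGcm and 3.51e+03 to 3.68e+03 in E15.5-mSGcm. Of the markers of other cells, SOX10 and FABP7 of glia, CDH5 of endothelium and AIF1 of leukocytes had 0 reads in all 8 libraries.

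Per kb of exonic length, a secreted inhibitor stood above all other members of the pathway. In mean CPM, which takes no account of length, CTNNB1 was higher than SFRP1 (459 against 432). SFRP1 led with a mean over the 8 libraries of 91.4 CPM per kb, followed by CTNNB1 (39.0 CPM per kb), the co-receptor LRP5 (26.5 CPM per kb), WLS (18.0 CPM per kb) and FZD7 (12.3 CPM per kb). TCF7L2 was the most abundant TCF/LEF factor at 9.91 CPM per kb, ROR2 was at 9.51 CPM per kb and WNT5A, the most abundant ligand, at 4.44 CPM per kb. WNT5A made up 61.0% to 75.6% of the summed CPM per kb of all 19 WNT genes, depending on the library. SFRP1 made up 93.4% to 97.0% of that of the SFRP and DKK genes.

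The 21 members that did not pass the filter were 12 ligands, 3 receptors and 6 others. WNT1, WNT7A, WNT8A, WNT9B, WNT16, FZD10, SFRP2 and NKD2 had 0 reads in every library. WNT2, WNT3, WNT3A, WNT6, WNT8B, SFRP5, DKK4 and APCDD1 had at most 2 reads in any library, and WNT4 and WNT10B at most 4. FZD8 had 3 and 4 reads in control medium, 8 and 12 in E8-cSGcm, 7 and 9 in E8-cDRGcm and 0 and 1 in E15.5-mSGcm. LRP6, the second Wnt co-receptor, is listed at 0 in all 8 libraries. Whether LRP6 RNA was absent or was missed in the counting was not tested. RNF43 had 1 read in all. Of the exonic length of RNF43, 68.4% is shared with other genes on the same strand, so its level is uncertain.

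Each medium moved some members of the pathway and left most within the thresholds. Calls needed both a fold change of 1.5 or more and an adjusted p under 0.05 (edgeR's quasi-likelihood test, Benjamini-Hochberg adjustment over all 16680 tested genes), and all adjusted p below are of this kind unless DESeq2 is named. In E8-cSGcm, 3 of the 37 tested members were called higher than in control medium (8.11%) and 2 lower (5.41%), where 4.73% and 3.86% of all 16680 tested genes were called in these directions. In E8-cDRGcm, 4 were higher (10.8%) and 6 lower (16.2%), against 9.81% and 10.9% of all tested genes. In E15.5-mSGcm, 5 were higher (13.5%) and 4 lower (10.8%), against 6.65% and 7.27%. The medians of the log2 fold changes of the tested members were -0.05, -0.15 and -0.15, and those of all tested genes 0.01, 0.01 and -0.02. WNT7B, WNT10A, SFRP4, FZD1 and WNT2B passed the filter through the media in which they were high, so some difference was built into their being tested, and the counts over tested members are a description. The 3 comparisons share their 2 control libraries.

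**Figure D1:**
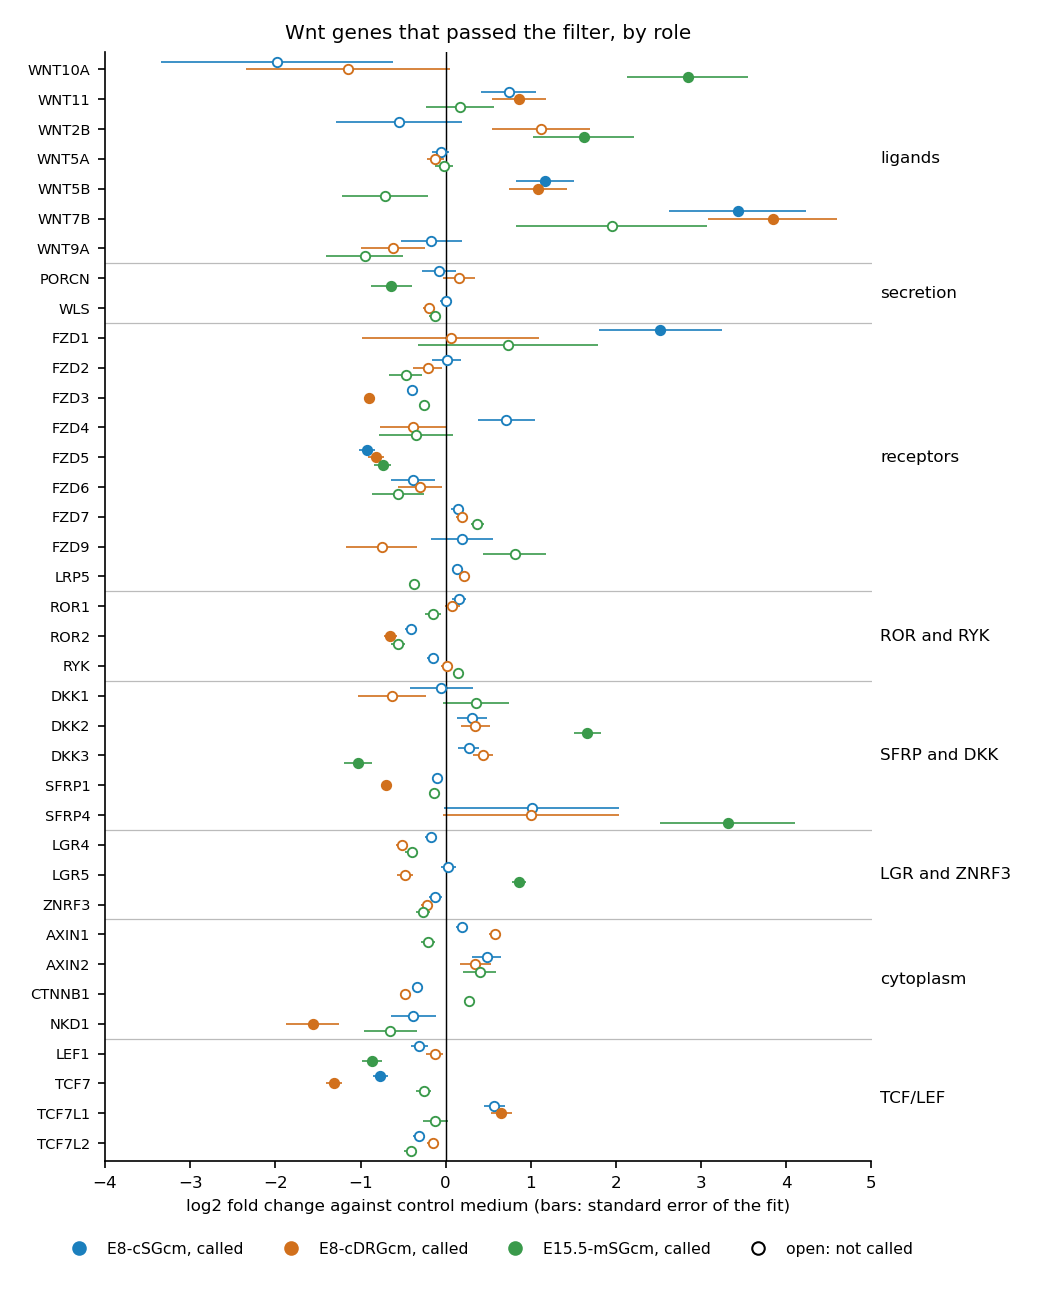
Log2 fold change against control medium (x axis) of the 37 Wnt genes tested, in rows ordered by role, with bars for the standard error of the fit and filled points for called genes. FZD5 lies left of 0 with filled points in all 3 media, and the bars are wide for rare members such as WNT7B.

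The ligands called against control medium were of low abundance, and the calls differed by medium. Such a difference in calls is not a test between media. WNT11 was not called between the chick media, nor WNT2B between E8-cDRGcm and E15.5-mSGcm. WNT5B and WNT7B rose in both chick media, WNT11 rose in E8-cDRGcm, and WNT10A and WNT2B rose in E15.5-mSGcm. WNT5A did not pass the test in any medium.

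WNT5B, a ligand of the non-canonical branch, was at 0.992 and 1.18 CPM in control medium, 2.80 and 2.17 in E8-cSGcm, 1.94 and 2.71 in E8-cDRGcm, and 0.511 and 0.798 in E15.5-mSGcm. Both chick media lay above control medium and the mouse medium below it, without overlap. The log2 fold change was 1.17 ± 0.339 (SE, adjusted p = 0.00741) in E8-cSGcm and 1.08 ± 0.342 (adjusted p = 0.00827) in E8-cDRGcm, and in E15.5-mSGcm it was -0.71 ± 0.508 (adjusted p = 0.286). Without control replicate 1 the adjusted p was 0.0566 and 0.0569 in the chick media, at log2 fold changes of 1.06 and 0.97. It was 0.0746 without E8-cSGcm replicate 1 (log2 fold change 0.98) and 0.130 without E8-cDRGcm replicate 2 (0.83). Both calls also ended under DESeq2 (adjusted p = 0.259 without its filter in E8-cSGcm and 0.119 in E8-cDRGcm) and after thinning to the smallest library (edgeR adjusted p = 0.0602 and 0.152).

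WNT7B, a ligand known from neural and lung development, had 1 read in each control library, 13 and 10 in E8-cSGcm, 19 and 12 in E8-cDRGcm and 3 and 2 in E15.5-mSGcm. The ratio of CPM to control was 12.2 (95% interval for counting error 3.00 to 106) in E8-cSGcm and 16.2 (4.13 to 140) in E8-cDRGcm, with adjusted p of 0.00102 and 5.38e-05. In E15.5-mSGcm the adjusted p was 0.174. DESeq2, once it was made to test genes of so few reads, gave an adjusted p of 0.0688 in E8-cSGcm, above the threshold.

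WNT11, which acts in cell movements of the embryo without beta-catenin, was at 1.22 and 1.64 CPM in control medium and at 2.02 and 3.22 in E8-cDRGcm, where its log2 fold change was 0.86 ± 0.321 (adjusted p = 0.0254). It stood at 1.92 and 2.87 CPM in E8-cSGcm (adjusted p = 0.0822) and 1.66 and 1.60 in E15.5-mSGcm (adjusted p = 0.775). The call ended under DESeq2 (adjusted p = 0.195), without control replicate 1 (log2 fold change 0.67, adjusted p = 0.162) and without E8-cDRGcm replicate 2 (0.48, adjusted p = 0.374).

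WNT10A, a canonical ligand of ectodermal organs, had 3 and 2 reads in control medium, 1 and 0 in E8-cSGcm, 0 and 2 in E8-cDRGcm and 8 and 14 in E15.5-mSGcm. The mouse medium thus stood above all other libraries, with a ratio to control of 7.51 (95% interval 2.78 to 25.4, adjusted p = 0.00161). Without E15.5-mSGcm replicate 2 the adjusted p was 0.0739, at a log2 fold change of 2.46, and DESeq2 without its filter gave 0.118. WNT10B, its close relative, did not pass the filter and had 4 and 3 reads in E15.5-mSGcm and at most 1 in any other library.

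WNT2B had 2 and 9 reads in control medium, 4 and 3 in E8-cSGcm, 11 and 12 in E8-cDRGcm and 9 and 11 in E15.5-mSGcm, the last from smaller libraries. The ratio of E15.5-mSGcm to control was 3.10 (95% interval 1.42 to 7.17, adjusted p = 0.0284). The call rested on the control libraries, since the log2 fold change of 1.62 became 1.01 without control replicate 1 (adjusted p = 0.263) and 2.89 without control replicate 2 (adjusted p = 0.0136). It also ended without E15.5-mSGcm replicate 1 or 2 (adjusted p = 0.0882 and 0.158), and 21.5% of the exonic length of WNT2B overlaps ST7L on the other strand. WNT5A stood between 27.9 and 35.0 CPM in all 8 libraries, with log2 fold changes of -0.06, -0.12 and -0.02. WNT9A, at 0.798 to 2.31 CPM, was not called, with log2 fold changes of -0.17, -0.62 and -0.95.

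**Figure D2:**
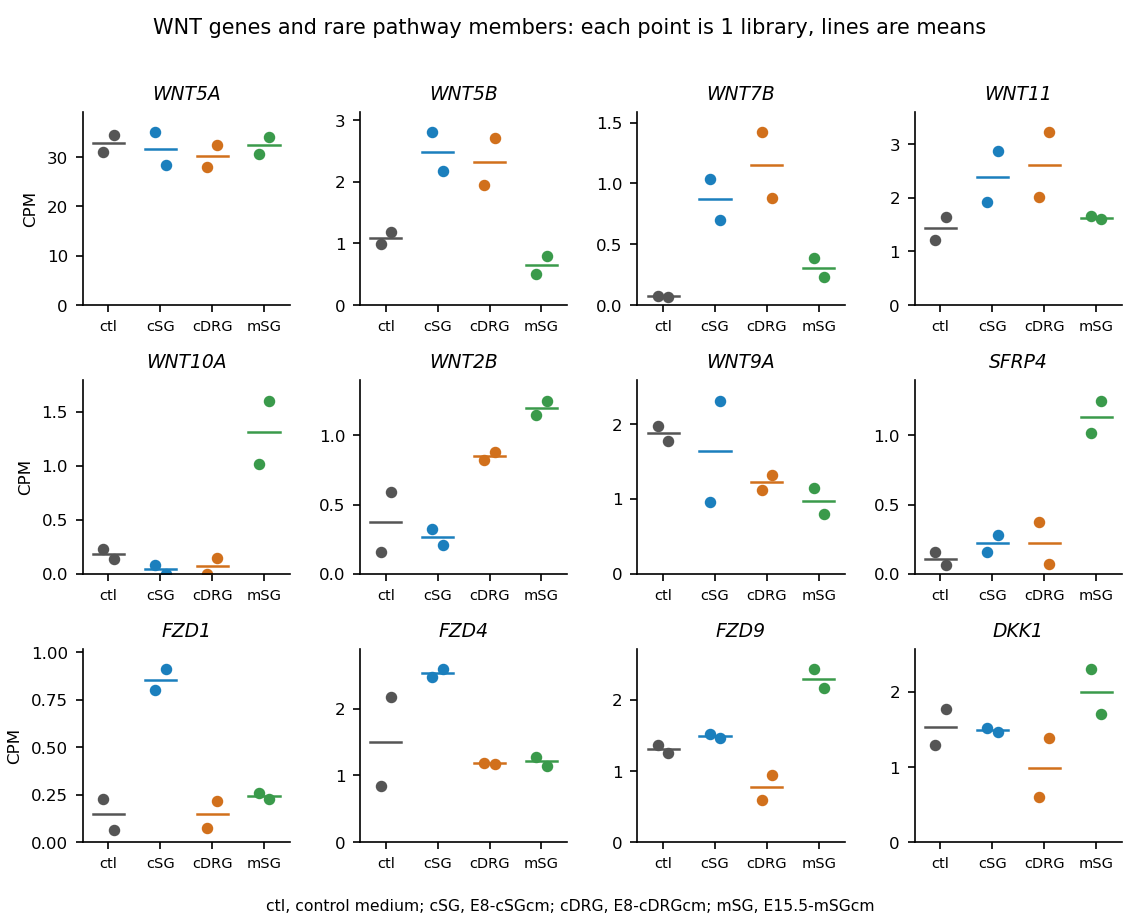
CPM (y axis, from 0 in each panel) of 7 WNT genes and 5 rare members of the pathway in each library, by group, with lines at the group means. WNT5B and WNT7B are higher in the chick media, WNT10A and SFRP4 stand out in E15.5-mSGcm and WNT5A is level.

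Of the ligand secretion genes, WLS was at 73.1 to 87.8 CPM and was not called in any comparison. PORCN was at 5.73 and 5.05 CPM in control medium and 3.58 and 3.31 in E15.5-mSGcm, a log2 fold change of -0.64 ± 0.239 (adjusted p = 0.0314). It was at 4.47 to 6.58 CPM in the chick media. The call in E15.5-mSGcm ended without control replicate 1 (log2 fold change -0.56, adjusted p = 0.139), without either E15.5-mSGcm library (adjusted p = 0.0852 and 0.179), under DESeq2 (adjusted p = 0.169) and after a correction for GC content and length (adjusted p = 0.0858).

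Among the receptors, FZD5 fell in all 3 media, and it was the only member called in the same direction against control medium in each of them. How many of all tested genes were called alike in all 3 media was not counted, so this only describes the members. FZD3 fell in E8-cDRGcm, and FZD1, a receptor with few reads here, rose in E8-cSGcm. FZD5 (ENSG00000163251, chromosome 2), a receptor for WNT5A and for canonical ligands, was at 33.2 and 31.3 CPM in control medium, 16.6 and 17.3 in E8-cSGcm, 18.3 and 18.3 in E8-cDRGcm and 19.3 and 19.4 in E15.5-mSGcm. Every conditioned library lay below every control library, and the media lay close to each other. The log2 fold changes were -0.92 ± 0.0953 (adjusted p = 9.56e-10), -0.82 ± 0.0940 (2.87e-09) and -0.74 ± 0.103 (3.51e-07), that is, 1.89-fold, 1.76-fold and 1.66-fold lower. All 3 calls held under each processing alternative tried, a phrase that for rarer genes covers the alternatives that could test them. Since RNA was taken from whole aggregates, fewer cells with the transcript and less of it per cell cannot be told apart, here and below.

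The promoter of FZD5 is shown because it is the member called in each medium. RefSeq promoter windows (250 bases before to 50 after a start, GRCh38.p14) were found for 41 of the 58 members, as 50 windows. They were searched on both strands for the TCF/LEF motif CTTTG followed by AA, AT, TA or TT. The motif was in 4 of these 50 windows (8%) and in 13.8% of all 35116 windows, whose median GC content was 58.7%, compared with 68% in the windows of the members. The FZD5 window has a GC content of 77% and does not hold these letters. The 100 bases just before the start, at chr2:207769907-207770006 on the minus strand, read as follows, with nothing in capitals because the motif is not there.
FZD5: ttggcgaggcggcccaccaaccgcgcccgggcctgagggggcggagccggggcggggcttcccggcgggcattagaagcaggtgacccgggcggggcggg

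FZD3, which guides axons and the migration of neural crest cells, was at 112 and 113 CPM in control medium, 87.2 and 84.8 in E8-cSGcm, 63.2 and 57.8 in E8-cDRGcm and 94.0 and 95.5 in E15.5-mSGcm. The groups did not overlap, and E8-cDRGcm was lowest. Only there did the change pass both thresholds, with a log2 fold change of -0.90 ± 0.0612 (adjusted p = 4.85e-15). In E8-cSGcm and E15.5-mSGcm the log2 fold changes of -0.39 (adjusted p = 2.36e-06) and -0.25 (adjusted p = 0.00154) passed the test but not the fold change of 1.5.

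FZD7 had the highest CPM per kb of the Frizzled genes, though FZD3 had the higher mean CPM. FZD7 was at 49.7 and 49.8 CPM in control medium, 53.8 and 55.9 in E8-cSGcm, 52.2 and 61.1 in E8-cDRGcm and 62.5 and 66.1 in E15.5-mSGcm. All conditioned libraries were above both control libraries, and the largest log2 fold change, 0.37 ± 0.0779 in E15.5-mSGcm (adjusted p = 0.000206), stayed under the fold change of 1.5. FZD1 had 3 and 1 reads in control medium, 10 and 13 in E8-cSGcm, 1 and 3 in E8-cDRGcm and 2 and 2 in E15.5-mSGcm. Its ratio in E8-cSGcm was 6.08 (95% interval 2.08 to 24.2, adjusted p = 0.00653), and the call ended without control replicate 2 (log2 fold change 1.86 in place of 2.52, adjusted p = 0.142) and without E8-cSGcm replicate 2 (2.42, adjusted p = 0.0592). Without control replicate 1 its log2 fold change was 3.52 (adjusted p = 0.0176), and DESeq2 without its filter gave an adjusted p of 0.299.

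FZD4, a receptor of vessel growth in the retina, had 11 and 33 reads in control medium, 31 and 37 in E8-cSGcm, 16 and 16 in E8-cDRGcm and 10 and 10 in E15.5-mSGcm. FZD9 was at 1.37 and 1.25 CPM in control medium, 1.52 and 1.47 in E8-cSGcm, 0.597 and 0.951 in E8-cDRGcm and 2.43 and 2.17 in E15.5-mSGcm. FZD4 and FZD9, like FZD2 and FZD6, were not called against control medium. The log2 fold changes of these 4 ranged from -0.75 for FZD9 in E8-cDRGcm to 0.81 for FZD9 in E15.5-mSGcm, and their adjusted p were at or above 0.0542. LRP5 was at 164 and 161 CPM in control medium, 181 and 175 in E8-cSGcm, 187 and 189 in E8-cDRGcm and 127 and 124 in E15.5-mSGcm. It lay above control in the chick media and below it in the mouse medium, without overlap, at log2 fold changes of 0.13, 0.21 and -0.37 that stayed under the fold change of 1.5.

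Of the non-canonical receptors, ROR2 fell in E8-cDRGcm and was lower in all conditioned libraries than in both control libraries. ROR2, a receptor tyrosine kinase for WNT5A, was at 78.6 and 67.3 CPM in control medium, 55.1 and 54.5 in E8-cSGcm, 44.7 and 48.3 in E8-cDRGcm and 51.1 and 47.5 in E15.5-mSGcm. The log2 fold changes were -0.41 (adjusted p = 3.04e-05), -0.65 ± 0.0743 (2.94e-09) and -0.56 (4.39e-07), of which the second passed the fold change of 1.5. Without control replicate 1, the higher of the pair, it was -0.53 in E8-cDRGcm (adjusted p = 3.33e-06), under that fold change. ROR1 (30.4 to 42.0 CPM) and RYK (58.8 to 74.5 CPM) were not called, with log2 fold changes between -0.15 and 0.16.

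Within the Frizzled family the makeup of the RNA shifted with the media. FZD7 held 40.1% and 39.2% of the summed CPM per kb of the family in control medium, 48.2% and 48.8% in E8-cSGcm, 52.5% and 57.3% in E8-cDRGcm and 51.6% and 52.6% in E15.5-mSGcm. FZD5 held 17.5% and 16.1% in control medium and 9.72% to 12.0% in the conditioned media. FZD3 held 30.0% and 29.7% in control medium and 21.1% and 18.0% in E8-cDRGcm. The summed level of the family was 27.0 and 27.7 CPM per kb in control medium and 21.7 to 27.4 CPM per kb in the conditioned media, so the sum stayed close to that of control or below it. Shares of one family are tied to each other and were not tested.

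**Figure D3:**
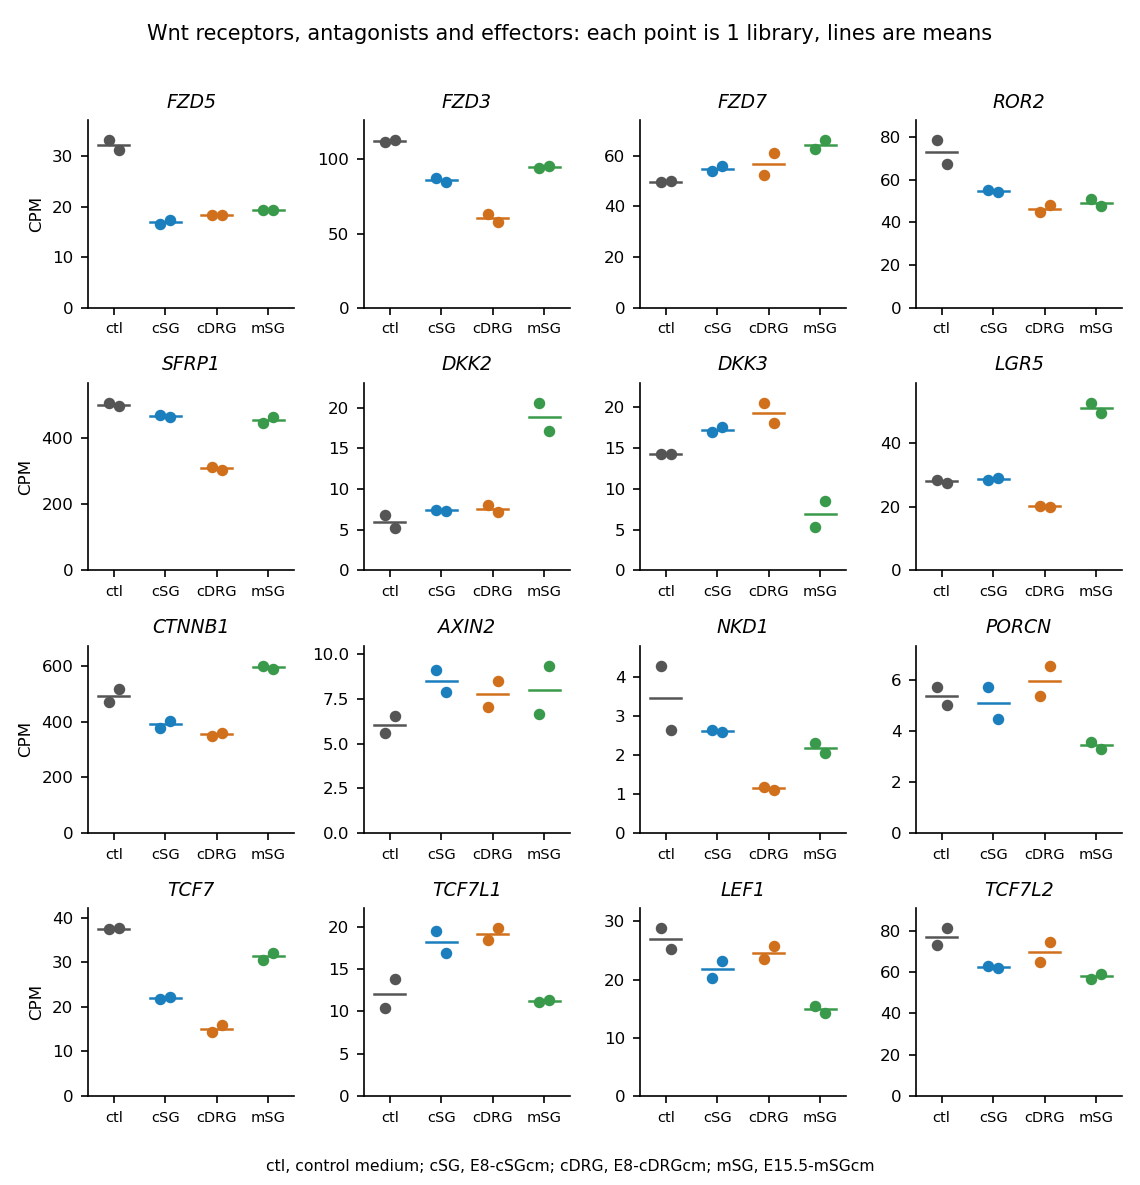
CPM (y axis, from 0 in each panel) of 16 receptors, antagonists and effectors of the pathway in each library, by group, with lines at the group means. FZD5 is lower in all 3 media, TCF7 and SFRP1 are lowest in E8-cDRGcm, and DKK2, DKK3, LGR5 and LEF1 set E15.5-mSGcm apart.

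The secreted antagonists moved in opposite directions in E15.5-mSGcm, where DKK2 and SFRP4 rose and DKK3 fell, and SFRP1 fell in E8-cDRGcm. In E8-cSGcm no SFRP or DKK gene was called. SFRP1 (ENSG00000104332) was at 506 and 496 CPM in control medium, 468 and 464 in E8-cSGcm, 313 and 304 in E8-cDRGcm and 445 and 463 in E15.5-mSGcm. Its level in E8-cDRGcm lay below all other libraries, with a log2 fold change of -0.70 ± 0.0473 (adjusted p = 3.50e-15) that held under each alternative. With it, the summed level of the SFRP and DKK genes went from 110 and 108 CPM per kb in control medium to 70.0 and 68.0 CPM per kb in E8-cDRGcm.

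DKK2 (ENSG00000155011, chromosome 4), a Dickkopf that can block LRP6 and that is also known to activate it in some settings, was at 6.79 and 5.19 CPM in control medium, 7.44 and 7.34 in E8-cSGcm, 7.99 and 7.17 in E8-cDRGcm and 20.6 and 17.1 in E15.5-mSGcm. The mouse medium stood above every other library, with a log2 fold change of 1.66 ± 0.159 (adjusted p = 7.98e-11). DKK3 (ENSG00000050165, chromosome 11), a divergent member of the family that does not bind LRP6, was at 14.3 and 14.2 CPM in control medium, 16.9 and 17.5 in E8-cSGcm, 20.5 and 18.1 in E8-cDRGcm and 5.37 and 8.44 in E15.5-mSGcm. It was lowest in the mouse medium, with a log2 fold change of -1.03 ± 0.163 (adjusted p = 3.33e-06), and stood above control in the chick media at log2 fold changes of 0.27 (adjusted p = 0.0861) and 0.44 (adjusted p = 0.00252). Of its exonic length, 47.5% overlaps USP47 on the other strand, and USP47 had a log2 fold change of -0.09 in E15.5-mSGcm.

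SFRP4 had 2 and 1 reads in control medium, 2 and 4 in E8-cSGcm, 5 and 1 in E8-cDRGcm and 8 and 11 in E15.5-mSGcm. Its ratio to control in the mouse medium was 10.8 (95% interval 3.18 to 57.1, adjusted p = 0.000982). Without control replicate 1 the log2 fold change of 3.31 became 3.92, and under DESeq2 without its filter the adjusted p was 0.0648. DKK1, the inducible inhibitor of LRP5/6, was at 1.30 and 1.77 CPM in control medium, 1.52 and 1.47 in E8-cSGcm, 0.597 and 1.39 in E8-cDRGcm and 2.30 and 1.71 in E15.5-mSGcm, and was not called against control medium.

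The promoter window of DKK1 is shown because it holds the motif in 2 places, starting 95 and 76 bases before the start. The stretch printed is chr10:52314156-52314241 on the plus strand, with the motifs in capitals.
DKK1: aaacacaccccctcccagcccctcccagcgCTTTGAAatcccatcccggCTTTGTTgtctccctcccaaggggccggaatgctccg

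At the membrane, LGR5 rose in E15.5-mSGcm, while LGR4 and ZNRF3 were not called in any comparison. LGR5 (ENSG00000139292, chromosome 12), a receptor of R-spondins and a marker of several stem cell types, was at 28.4 and 27.6 CPM in control medium, 28.4 and 28.9 in E8-cSGcm, 20.2 and 20.0 in E8-cDRGcm and 52.6 and 49.5 in E15.5-mSGcm. It was highest in the mouse medium, with a log2 fold change of 0.86 ± 0.0858 (adjusted p = 1.91e-10), and lowest in E8-cDRGcm, where the log2 fold change of -0.48 (adjusted p = 4.28e-05) stayed under the fold change of 1.5. LGR4 was at 58.4 and 64.7 CPM in control medium and below both values in each conditioned library, at 42.6 to 55.1 CPM. ZNRF3 was at 48.7 and 48.0 CPM in control medium and at 38.8 to 45.7 CPM in the conditioned media.

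Of the cytoplasmic members only NKD1 was called against control medium. NKD1, a Dishevelled-binding inhibitor that canonical signaling induces, was at 4.28 and 2.63 CPM in control medium, 2.64 and 2.59 in E8-cSGcm, 1.19 and 1.10 in E8-cDRGcm and 2.30 and 2.05 in E15.5-mSGcm. It fell in E8-cDRGcm by 1.56 on the log2 scale (SE 0.313, adjusted p = 6.87e-05), under each alternative. AXIN2, the target most often used as a readout of beta-catenin signaling, was at 5.57 and 6.56 CPM in control medium, 9.12 and 7.90 in E8-cSGcm, 7.02 and 8.48 in E8-cDRGcm and 6.65 and 9.35 in E15.5-mSGcm. All conditioned libraries were above both control libraries, yet the log2 fold changes of 0.48 ± 0.175 (adjusted p = 0.0348), 0.35 (0.104) and 0.40 (0.102) did not pass both thresholds.

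CTNNB1 was at 470 and 517 CPM in control medium, 377 and 404 in E8-cSGcm, 350 and 359 in E8-cDRGcm and 601 and 590 in E15.5-mSGcm. Its log2 fold changes of -0.34, -0.48 and 0.27 passed the test (adjusted p = 1.80e-06, 4.74e-10 and 4.48e-05) and stayed under the fold change of 1.5. AXIN1, the scaffold of the destruction complex, was at 44.3 and 47.2 CPM in control medium, 51.4 and 53.3 in E8-cSGcm, 71.6 and 65.7 in E8-cDRGcm and 41.6 and 37.6 in E15.5-mSGcm. It was highest in E8-cDRGcm, where the log2 fold change of 0.58 ± 0.0719 (adjusted p = 1.30e-08) lay just short of the threshold of 0.585. RNA level says nothing of the amount of beta-catenin protein, which the pathway controls.

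Of the TCF/LEF factors, TCF7 fell in both chick media, TCF7L1 rose in E8-cDRGcm, and LEF1 fell in E15.5-mSGcm. None was called between the chick media. TCF7 (ENSG00000081059, chromosome 5) was at 37.4 and 37.6 CPM in control medium, 21.8 and 22.1 in E8-cSGcm, 14.3 and 15.9 in E8-cDRGcm and 30.6 and 32.0 in E15.5-mSGcm. The 4 groups did not overlap. The log2 fold changes were -0.77 ± 0.0890 (adjusted p = 1.01e-08) and -1.31 ± 0.0946 (2.29e-14) in the chick media, or 1.71-fold and 2.48-fold lower, and -0.26 (0.0233) in E15.5-mSGcm, under the fold change of 1.5. Both chick calls held under each alternative.

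TCF7 has 2 promoter windows in the RefSeq table, and the downstream of them holds the motif on the opposite strand, 50 bases before the start. It is shown for its own factor family, at chr5:134123538-134123604 on the plus strand, with the motif in capitals.
TCF7: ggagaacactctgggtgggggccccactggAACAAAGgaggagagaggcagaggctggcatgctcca

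TCF7L1, the family member best known as a repressor, was at 10.4 and 13.8 CPM in control medium, 19.5 and 16.9 in E8-cSGcm, 18.4 and 19.8 in E8-cDRGcm and 11.1 and 11.3 in E15.5-mSGcm. The chick media lay above control and the mouse medium within its range. The log2 fold change was 0.65 ± 0.123 in E8-cDRGcm (adjusted p = 3.44e-05) and 0.57 ± 0.125 in E8-cSGcm (adjusted p = 0.000445), where it fell short of the fold change of 1.5. Without control replicate 1, the lower of the pair, it was 0.47 in E8-cDRGcm (adjusted p = 0.00658) and no longer called.

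LEF1 (ENSG00000138795, chromosome 4), which binds beta-catenin directly, was at 27.1 ± 2.43 CPM (SD, 2 libraries) in control medium, 21.7 ± 2.09 in E8-cSGcm, 24.6 ± 1.52 in E8-cDRGcm and 14.9 ± 0.863 in E15.5-mSGcm. Its log2 fold change of -0.86 ± 0.118 in the mouse medium (adjusted p = 2.40e-07) held under each alternative. TCF7L2 was at 73.2 and 81.1 CPM in control medium and at 56.8 to 74.5 CPM in the conditioned media, and was not called. In shares of the family, TCF7L2 stayed at 47.0% to 51.2% in all 8 libraries. TCF7 went from 16.6% and 15.8% in control medium to 7.25% and 7.21% in E8-cDRGcm, and TCF7L1 from 10.5% and 13.2% to 21.2% and 20.4%. The summed level of the family was 22.3 and 23.6 CPM per kb in control medium and 16.9 to 21.9 CPM per kb in the conditioned media.

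**Figure D4:**
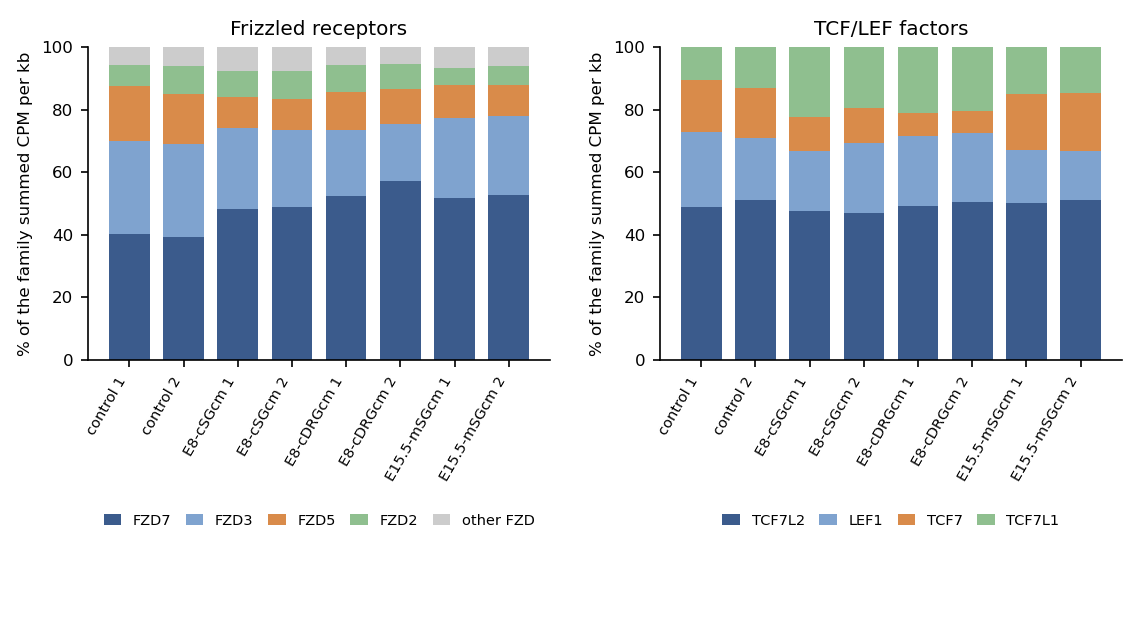
Share in percent (y axis) of each Frizzled gene (left) and each TCF/LEF gene (right) in the summed CPM per kb of its family, as stacked bars for the 8 libraries. FZD7 takes the largest share of its family, 39.2% to 57.3%, and TCF7L1 passes TCF7 in both chick media but not in control medium or E15.5-mSGcm.

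The differences between media were tested directly. The limit given above for members that passed the filter through media in which they were high applies here too. Between the chick ganglia, E8-cDRGcm against E8-cSGcm, 1 of 37 members was higher (2.70%) and 4 were lower (10.8%), against 2.62% and 4.87% of all tested genes. SFRP1 was lower by 0.60 ± 0.0474 on the log2 scale (adjusted p = 2.07e-12), just past the fold change of 1.5, and was at -0.58 without E8-cDRGcm replicate 2. NKD1 was lower at a log2 fold change of -1.18 ± 0.331 (adjusted p = 0.00576), which ended without E8-cDRGcm replicate 2 (-1.12, adjusted p = 0.0510). FZD1 and FZD4 were lower and WNT2B higher on few reads, and each of these calls ended when 1 library was left out. For FZD1 these were E8-cSGcm replicate 2 and E8-cDRGcm replicate 1 (adjusted p = 0.0716 and 0.128). For FZD4 they were the same libraries and E8-cDRGcm replicate 2 (adjusted p of 0.0771 to 0.0846), and for WNT2B each library of both chick media and of E15.5-mSGcm (adjusted p of 0.0575 to 0.243).

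Between sympathetic ganglia, E15.5-mSGcm against E8-cSGcm, 6 members were higher (16.2%) and 5 lower (13.5%), against 10.2% and 12.1% of all tested genes. DKK2 (log2 fold change 1.34 ± 0.155), LGR5 (0.83 ± 0.0862) and WNT10A were higher, and DKK3 (-1.30 ± 0.159) and WNT5B (-1.88 ± 0.438) lower, with adjusted p of at most 0.000466, under each alternative. WNT10A passed the filter through E15.5-mSGcm, so some difference was built into its being tested. The filter of at least 10 counts in every library and the thinning could not test it. The size of the WNT10A difference is loosely fixed, since E8-cSGcm had 1 read in all and the ratio of 35.5 has a 95% interval from 5.74 to 1.47e+03. Its log2 fold change of 4.81 was 7.03 without E8-cSGcm replicate 1 and 3.87 without E8-cSGcm replicate 2. TCF7L1 was lower (-0.69 ± 0.143, adjusted p = 0.000104), and was at -0.40 after a correction for GC content and length. CTNNB1 was higher by 0.61 ± 0.0510 on the log2 scale (adjusted p = 1.50e-12), and was at 0.55 without E8-cSGcm replicate 1 and so below the fold change of 1.5. SFRP4, WNT2B, FZD1 and FZD4 were also called, and each lost the call when 1 library was left out. These were E8-cSGcm replicate 1 and E15.5-mSGcm replicate 2 for SFRP4 (adjusted p = 0.0524 and 0.0759) and E8-cSGcm replicate 2 for WNT2B (0.0563). For FZD4 they were E8-cSGcm replicate 2 and either E15.5-mSGcm library (0.0721 to 0.136), and for FZD1 any of the 8 (0.0563 to 0.208).

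E15.5-mSGcm and E8-cDRGcm lay farthest apart. With E15.5-mSGcm against E8-cDRGcm, 10 members were higher (27.0%) and 7 lower (18.9%), where 13.1% and 13.1% of all tested genes were called. TCF7 (log2 fold change 1.05 ± 0.105), LGR5 (1.34 ± 0.0907), DKK2 (1.31 ± 0.154), CTNNB1 (0.75 ± 0.0512) and WNT10A (3.99 ± 0.848) were higher, and DKK3 (-1.46 ± 0.156), LEF1 (-0.73 ± 0.120), TCF7L1 (-0.77 ± 0.141) and WNT5B (-1.80 ± 0.442) lower, under each alternative and with adjusted p of at most 0.000776. WNT10A, which passed the filter through E15.5-mSGcm, was at 3.10 without E8-cDRGcm replicate 1 and 7.01 without E8-cDRGcm replicate 2. FZD9 was higher on 38 reads against 21 (1.55 ± 0.414, adjusted p = 0.00175), which DESeq2 without its filter put at an adjusted p of 0.0514. AXIN1 was lower (-0.80 ± 0.0801, adjusted p = 9.16e-11), and was at -0.58 after the correction for GC content and length. FZD3 was higher (0.65 ± 0.0657, adjusted p = 1.03e-10), and was at 0.58 without E8-cDRGcm replicate 2.

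The other 5 calls of that comparison were lost with 1 library left out. PORCN lost the call without E8-cDRGcm replicate 2 or E15.5-mSGcm replicate 2 (adjusted p = 0.0606 and 0.0510), SFRP4 without the same libraries (0.110 and 0.0686) and WNT7B without E8-cDRGcm replicate 1 or E15.5-mSGcm replicate 2 (0.146 and 0.144). The log2 fold change of SFRP4, 2.32, was 3.80 without E8-cDRGcm replicate 1. NKD1 lost it without any of the 4 libraries compared (0.0834 to 0.160). DKK1 lost it without control replicate 2, E8-cDRGcm replicate 1 or either E15.5-mSGcm library (0.0510 to 0.368), and its log2 fold change of 0.99 was 0.53 without E8-cDRGcm replicate 1 and 1.71 without E8-cDRGcm replicate 2.

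Beyond the 58 members, 83 other genes of the pathway were listed in 5 classes, namely extracellular regulators, destruction complex, signal transducers, planar cell polarity and genes reported as targets, and 65 were tested. In E8-cSGcm 2 of them were higher (3.08%) and 3 lower (4.62%), in E8-cDRGcm 4 higher (6.15%) and 12 lower (18.5%), and in E15.5-mSGcm 8 higher (12.3%) and 8 lower (12.3%), beside the shares of all tested genes given above. No gene of this list was called in the same direction in all 3 media. The share of all tested genes called alike in all 3 media was not counted, so this only describes the list. The 15 genes of the destruction complex had 1 call in E8-cDRGcm (AMER1, lower) and 1 in E15.5-mSGcm (APC2, lower). The extracellular regulators had the most calls in E15.5-mSGcm, with 5 of 11 higher and 1 lower, beside 6.65% and 7.27% of all tested genes. In E8-cDRGcm 5 of 13 tested genes reported as targets were lower and 1 was higher, and 3 of 16 signal transducers were lower, beside 9.81% of all tested genes higher and 10.9% lower.

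RSPO3, an R-spondin that raises Wnt signaling through LGR receptors, was at 0.229 and 0.263 CPM in control medium, 0.560 and 0.419 in E8-cSGcm, 0.821 and 0.658 in E8-cDRGcm and 3.58 and 3.53 in E15.5-mSGcm. The 4 groups did not overlap, with control lowest. Its log2 fold change was 3.79 ± 0.474 (adjusted p = 3.62e-08) in E15.5-mSGcm, on 28 and 31 reads against 3 and 4, so that it too passed the filter through the media in which it was high. In E8-cDRGcm it was 1.54 ± 0.605 (adjusted p = 0.0325), and this call ended without any of the 4 libraries compared (adjusted p of 0.0563 to 0.148). RSPO2 was at 0.458 and 0.919 CPM in control medium and 1.92 and 1.71 in E15.5-mSGcm (log2 fold change 1.35 ± 0.459, adjusted p = 0.0184), a call that ended without control replicate 1 (0.96, adjusted p = 0.173) or either E15.5-mSGcm library (0.0987 and 0.0688). Without control replicate 2 it was 1.95 (adjusted p = 0.0156).

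NOTUM, the enzyme that removes the lipid from Wnt proteins, was at 4.05 and 5.12 CPM in control medium, 3.76 and 5.80 in E8-cSGcm, 2.76 and 2.78 in E8-cDRGcm and 14.6 and 11.1 in E15.5-mSGcm. It rose in the mouse medium by a log2 fold change of 1.46 ± 0.198 (adjusted p = 1.84e-07). In E8-cDRGcm it was lower (-0.73 ± 0.242, adjusted p = 0.0114), a value named after it was seen, and that call ended without control replicate 2 (-0.55, adjusted p = 0.159) or either E8-cDRGcm library (0.0540 and 0.0549).

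FRZB, a secreted Frizzled-related antagonist, was at 6.49 and 4.79 CPM in control medium, 3.68 and 3.71 in E8-cSGcm, 2.02 and 1.17 in E8-cDRGcm and 12.8 and 12.7 in E15.5-mSGcm. It was lower than control in both chick media and higher in the mouse medium, the latter value named after it was seen. The log2 fold changes were -0.60 ± 0.213 (adjusted p = 0.0298), -1.81 ± 0.254 (1.92e-07) and 1.18 ± 0.185 (2.75e-06), and E15.5-mSGcm against E8-cDRGcm gave 2.99 ± 0.236 (1.57e-13). The call in E8-cSGcm ended without control replicate 1 (-0.37, adjusted p = 0.333) and without either E8-cSGcm library (0.0942 and 0.111).

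KREMEN2, a receptor that acts with DKK proteins against LRP6, was at 2.52 and 2.63 CPM in control medium, 5.92 and 6.08 in E8-cSGcm, 5.82 and 6.29 in E8-cDRGcm and 2.94 and 2.17 in E15.5-mSGcm. It rose in both chick media, by log2 fold changes of 1.22 ± 0.215 and 1.23 ± 0.214 (adjusted p = 2.65e-05 and 8.60e-06), while the mouse medium overlapped control. Between the chick media its log2 fold change was 0.01 ± 0.184 (adjusted p = 0.971).

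**Figure D5:**
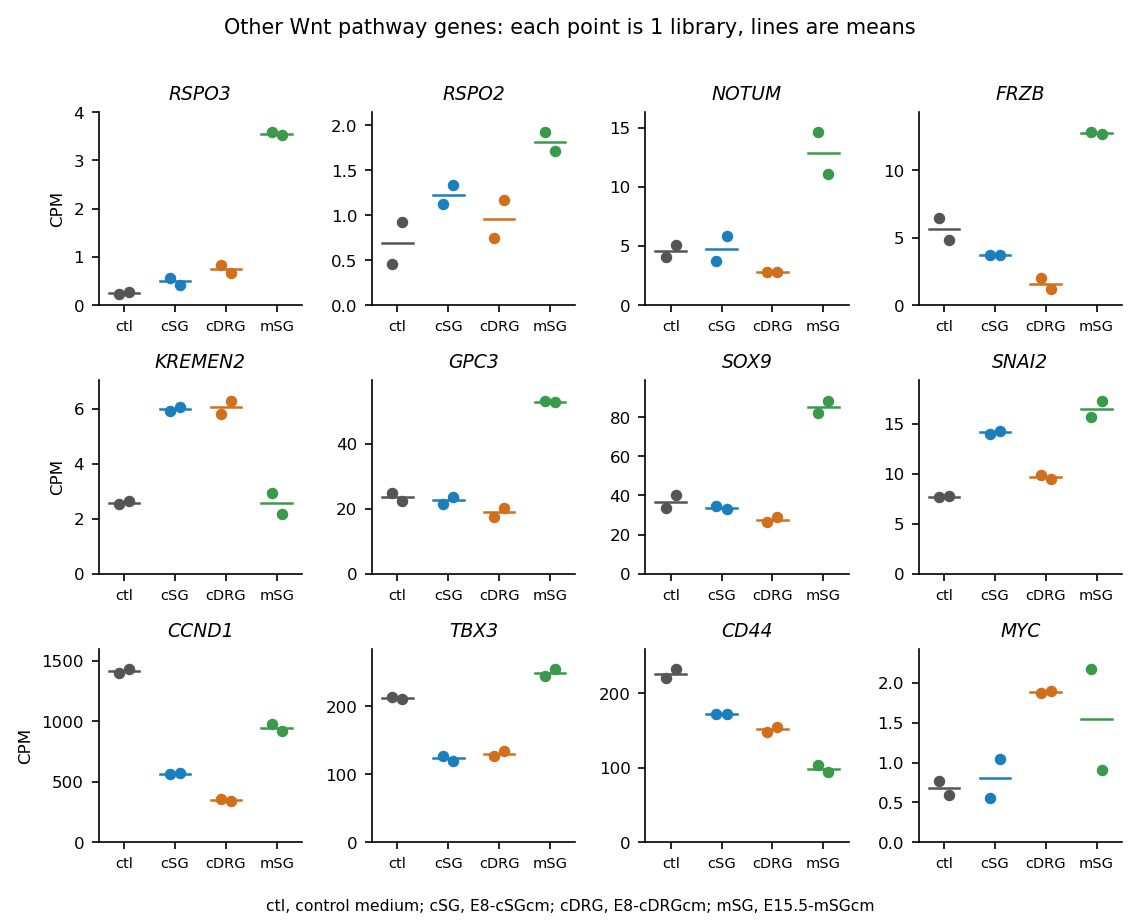
CPM (y axis, from 0 in each panel) of 12 other genes of the Wnt pathway in each library, by group, with lines at the group means. RSPO3, NOTUM, FRZB, GPC3 and SOX9 are highest in E15.5-mSGcm, KREMEN2 is higher in both chick media and CCND1 is highest in control medium.

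Genes reported as Wnt targets leaned lower in the chick media, with exceptions, and were mixed in E15.5-mSGcm. The median log2 fold change of the 13 tested was -0.40 in E8-cSGcm, -0.55 in E8-cDRGcm and 0.12 in E15.5-mSGcm. In E8-cDRGcm 5 were called lower and 1 higher. Among the lower ones were EPHB2 and SOX4, named after they were seen, whose calls held under each alternative. CCND1, which encodes cyclin D1 and has other inputs besides Wnt, was at 1.40e+03 and 1.43e+03 CPM in control medium, 563 and 572 in E8-cSGcm, 357 and 342 in E8-cDRGcm and 980 and 917 in E15.5-mSGcm. The groups did not overlap. It fell in E8-cSGcm (-1.32 ± 0.0482, adjusted p = 2.26e-22) and E8-cDRGcm (-2.02 ± 0.0495, adjusted p = 2.73e-28), and in E15.5-mSGcm the log2 fold change was -0.58 ± 0.0476 (adjusted p = 1.96e-12), just under the fold change of 1.5. TBX3 was at 213 and 211 CPM in control medium, 126 and 120 in E8-cSGcm, 126 and 134 in E8-cDRGcm and 244 and 254 in E15.5-mSGcm. It fell in E8-cSGcm (-0.78 ± 0.0528, adjusted p = 1.59e-14) and, named after it was seen, in E8-cDRGcm (-0.71 ± 0.0525, adjusted p = 4.86e-14), while the log2 fold change of 0.23 in E15.5-mSGcm (adjusted p = 0.000404) stayed under the fold change of 1.5.

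SNAI2, a transcription factor of the migrating neural crest, was at 7.63 and 7.81 CPM in control medium, 14.0 and 14.3 in E8-cSGcm, 9.86 and 9.43 in E8-cDRGcm and 15.7 and 17.3 in E15.5-mSGcm. It was above control in all 6 conditioned libraries and was called in E8-cSGcm (0.87 ± 0.134, adjusted p = 2.93e-06) and, named after it was seen, in E15.5-mSGcm (1.10 ± 0.142, adjusted p = 7.15e-08). MYC had 10 and 9 reads in control medium and 25 and 26 in E8-cDRGcm (1.47 ± 0.430, adjusted p = 0.00439), a call that ended without control replicate 2 (1.29, adjusted p = 0.0548) and under DESeq2 (adjusted p = 0.0739).

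Among genes named after their values were seen, SOX9, a factor of neural crest and glia, was at 33.7 and 40.0 CPM in control medium and 82.3 and 88.4 in E15.5-mSGcm (1.21 ± 0.0810, adjusted p = 6.49e-15). GPC3, a glypican that binds Wnt proteins at the cell surface, was at 24.7 and 22.5 CPM in control medium and 53.2 and 52.8 in E15.5-mSGcm (1.17 ± 0.0930, adjusted p = 6.31e-13). In the chick media both were within or below the control range.

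Of the 65 other pathway genes tested, those that fell most in E15.5-mSGcm were DAAM2 and PRICKLE2, both of planar cell polarity, and CD44, an adhesion receptor. CD44 was at 221 and 232 CPM in control medium and 103 and 94.1 in E15.5-mSGcm (-1.20 ± 0.0578, adjusted p = 3.58e-19). DAAM2 had 13 and 16 reads in control medium, 7 and 4 in E8-cDRGcm and 2 and 3 in E15.5-mSGcm, with log2 fold changes of -1.31 (adjusted p = 0.0389) and -1.73 (adjusted p = 0.0349). DAAM2 passed the filter through control medium, where it was highest, so some fall was built into its being tested. PRICKLE2 had 21 and 24 reads in control medium and 7 and 4 in E15.5-mSGcm (-1.25, adjusted p = 0.0359). The DAAM2 calls ended without any library compared (adjusted p of 0.0564 to 0.263), and that of PRICKLE2 without control replicate 1 or 2 or E15.5-mSGcm replicate 2 (0.0867, 0.0834 and 0.316).

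Markers of fibroblasts did not move together in E15.5-mSGcm. All 6 fibroblast markers (COL1A1, COL1A2, COL3A1, PDGFRA, DCN and LUM) had reads in every group, and their summed level was 157 to 174 CPM in control medium, 212 to 222 in E8-cSGcm, 193 to 200 in E8-cDRGcm and 161 to 174 in E15.5-mSGcm. The sum hides opposite movements, since COL1A1 had 1296 and 1716 reads in control medium and 249 and 249 in E15.5-mSGcm, while PDGFRA had 14 and 8 and then 67 and 97, and DCN 36 and 42 and then 107 and 118, in smaller libraries. All libraries were of the same cell line, and these genes had reads in control medium too. The source of the reads was not tested. A link between their movements and the higher RSPO3, DKK2, LGR5, SFRP4 and WNT10A of E15.5-mSGcm was not tested. The summed noradrenergic markers were lower in each conditioned medium, as FZD5 was, and their part in its fall was not tested either. MYCN made up 69.6% to 78.7% of that sum, and other markers differed from it. HAND2 was at 740 and 710 CPM in control medium and 747 and 713 in E8-cDRGcm, and DBH at 37.8 and 37.1 CPM in control medium and 48.3 and 55.1 in E15.5-mSGcm.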

How the data were processed

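Total RNA of the IGR-N91 aggregates was made into libraries by the authors with a stranded pico kit from 50 ng and sequenced as single reads of 75 bases. Per the labels and the submitters' processing notes, reads were demultiplexed with bcl2fastq 2.17.1.14, trimmed with cutadapt 1.9.1, mapped with TopHat2 2.1.0 and turned into raw counts per Ensembl gene with HTSeq 0.11.3, and these counts were used as deposited. The genome build is given as hg19 in the methods and as hg38 in the submitters' notes, so genes are placed by chromosome alone and the coordinates printed are those of the RefSeq promoter windows (GRCh38.p14), and the strand option is not given in the sources used here. Symbols were found for 58611 of 60676 identifiers.

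Counts were analysed with edgeR 4.0.16 in R 4.3.3 (TMM, filterByExpr, 1 coefficient for each of the 4 groups over all 8 libraries, robust quasi-likelihood test, 6 comparisons). DESeq2 1.42.0 was an alternative. The edgeR test, the replicate block and DESeq2 were checked on simulated counts. CPM per kb used exonic lengths of GENCODE, and ratios of low counts carry exact binomial 95% intervals. The genes described are all members called in any comparison or leading their role, and, of the other pathway genes, up to 3 called genes with the largest and 3 with the smallest fold change in each medium. Some marker genes are not reported here. Members and lists were chosen with earlier results of these data known. Alternatives were DESeq2, RLE size factors, other filters, fits of the 4 libraries compared, adjusted p alone, a replicate block and leaving out each library. A correction for GC content and length, DESeq2 without independent filtering and thinning to 7930765 reads were chosen after seeing the data.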

Additional observations from a re-analysis of the deposited data

How the results depend on the processing

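Of 57 calls of members over the 6 comparisons, 27 held under every alternative that gave a value, and of 1036 values over calls and alternatives 909 kept the call, 127 lost it and 0 reversed. The counts below are of members called against control medium in E8-cSGcm, E8-cDRGcm and E15.5-mSGcm (5, 10 and 9 as reported), then in E8-cDRGcm against E8-cSGcm, E15.5-mSGcm against E8-cSGcm and E15.5-mSGcm against E8-cDRGcm (5, 11 and 17). DESeq2 called 2 in E8-cSGcm, 5 in E15.5-mSGcm, 1 in the fourth and 7 in the fifth comparison, and without independent filtering 2, 5, 1, 7 and, in the sixth, 11. With at least 10 counts in every library, which removes rare members, the counts were 2 in E8-cSGcm and 3, 6 and 11 in the last 3 comparisons. Thinning to 7930765 reads gave 3 in E8-cSGcm, 5 in E15.5-mSGcm, 2 in the fourth and 6 in the fifth. Adjusted p alone called 14, 19, 20, 13 and 20 members in the first 5 comparisons, and 25, 44 and 45 other pathway genes against control (5, 16 and 16 as reported). Leaving out 1 library gave 4 to 7, 6 to 12, 6 to 11, 2 to 5, 9 to 11 and 13 to 19 members, and 5 to 7, 10 to 16 and 14 to 17 other pathway genes. The 6 members in E8-cDRGcm came without control replicate 1, the 10 other pathway genes without control replicate 2, and the 2 members between chick media without E8-cSGcm replicate 2 or either E8-cDRGcm library. The cause of these shifts was not tested. RLE size factors ended no call of a member. DESeq2 gave no adjusted p to WNT5B, FZD1 and WNT7B in E8-cSGcm or to SFRP4 and WNT10A in E15.5-mSGcm, and without independent filtering all 5 of these calls were lost (adjusted p = 0.259, 0.299, 0.0688, 0.0648 and 0.118).

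No shared shift of libraries with the same replicate number was seen, as their deviations from the group means correlated between -0.0437 and 0.0420. This cannot tell how the cultures were matched. With the replicate block the counts of members were 5, 10, 9, 5, 10 and 17 and those of other pathway genes 5, 16 and 16, and with the block and the correction for GC content and length the members called were 5, 11, 9, 5, 11 and 13. At 2 libraries a group and at most 15060744 reads, changes in the rarest members were detectable only when large.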
